A study of Homo sapiens with 9 samples.

Results

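NUP37 belongs to the Y-complex, the outer scaffold of the nuclear pore, with NUP43, NUP85, NUP107, NUP133, NUP160, SEH1L, SEC13, AHCTF1 and NUP96, which is made from the NUP98 gene. NUP37 was chosen because its signal in these arrays was far higher after transfection of either form of miR-376a* than after control transfection, and the other 8 genes were taken because they encode subunits of the complex (NUP98, with its further product, is given with the other nucleoporins). They are 9 of the 12505 genes tested, and 16 of 54675 probe sets (groups of short probes for a transcript) are annotated to 1 of them alone. SW1783 cells, an established human glioma line, received synthetic miRNA duplexes at 50 nM with a lipid reagent, and RNA was taken 24 h later. The groups are miR-376a*A, miR-376a*G and miR-control, each with 3 biological replicates on 1 Affymetrix array apiece. The forms differ by a single base, G standing in for the inosine that A-to-I editing leaves. All groups were transfected and no untransfected cells were included, so both comparisons with control rest on the same 3 arrays of 1 control duplex in 1 cell line. The question was whether the other subunits followed NUP37.

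Nuclear pores are the channels through which RNA and protein pass between nucleus and cytoplasm. The Y-complex, also called the NUP107-NUP160 complex, forms rings on both faces of the pore, which hold the membrane in its curve and anchor the other pore proteins. In mitosis it moves to kinetochores, and it starts the rebuilding of pores on chromatin as the nucleus reforms. NUP37 is a beta-propeller protein that attaches to NUP160 at the periphery of the complex. Some of its partners also serve elsewhere: SEC13 is part of the COPII coat of vesicles leaving the endoplasmic reticulum, and SEH1L and SEC13 belong to GATOR2, a regulator of nutrient signalling.

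The mature sequence that RefSeq lists for the natural 5′ arm, miR-376a* in older naming, is shown because the seed (bases 2 to 8, in capitals) sets which transcripts a miRNA pairs with. It lies at chr14:101040788-101040809 on the plus strand of GRCh38.p14. Neither the transfected duplexes' sequences nor the edited position stand in the labels, and no target sites were searched.
hsa-miR-376a-5p: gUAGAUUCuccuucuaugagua

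NUP37 lies on the minus strand of chromosome 12 and starts next to PARPBP, which runs the other way. The window from 250 bases before to 50 after the NUP37 start, chr12:102120065-102120364 on the minus strand of GRCh38.p14, is shown because it overlaps both RefSeq promoter windows of PARPBP, by 168 and 236 bases. The starts lie 69 and 265 bases apart. Capitals mark the letters CCAAT and CCGGAA, searched on both strands, which do not overlap here. CCAAT occurs in 34.6% and CCGGAA in 17.2% of 35116 RefSeq windows of this length. Of the 7 subunit genes with a window, 3 hold CCAAT and 6 hold CCGGAA. These matches are a description of the letters only.
NUP37 promoter window: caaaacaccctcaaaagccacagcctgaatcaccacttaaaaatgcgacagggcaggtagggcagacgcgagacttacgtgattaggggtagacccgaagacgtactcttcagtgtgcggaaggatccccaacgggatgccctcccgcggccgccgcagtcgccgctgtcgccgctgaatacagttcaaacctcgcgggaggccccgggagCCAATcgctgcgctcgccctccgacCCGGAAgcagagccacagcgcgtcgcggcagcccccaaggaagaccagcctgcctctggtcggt

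The values are the linear signals deposited by the authors, whose median was between 18.8 and 24.0 per array. Each of 8 arrays had a rank correlation of 0.969 to 0.970 with the array most like it, whereas control replicate 1 reached 0.941, and 772 genes lay at least 2-fold from the other control arrays in it. Results are therefore also given without that array. Of 8 glial or mesenchymal markers, VIM, CD44, S100A6 and SOX9 were above the filter on dim probe sets, and GFAP, S100B, NES and OLIG2 were below it. None of the 3 epithelial and 3 leukocyte markers was above it (CD68 had no probe set of its own), while 1 of 2 endothelial markers (PECAM1) and 2 of 3 neuronal markers were. Of these SNAP25 rose against control in limma's test, by 1.12 with miR-376a*A (adjusted p = 0.00211) and by 0.94 with miR-376a*G (adjusted p = 0.00474), and its part in the results below was not tested.

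NUP37 had deposited signals of 743, 782 and 729 with miR-376a*A and of 840.2, 778 and 918 with miR-376a*G, against 192, 204 and 191 with the control miRNA. All 6 arrays with a form of miR-376a* lay far above all 3 control arrays, and control replicate 1 fell within the narrow range of its group. Means were 751 ± 27.4 for miR-376a*A, 845 ± 70.3 for miR-376a*G and 196 ± 7.36 for control (SD, n = 3 each). Differences are given on the log2 scale, after 16 was added to each signal and arrays were quantile normalized, which understates the change of dim probe sets. NUP37 with miR-376a*A was 1.85 above control (SE 0.10, 95% interval 1.63 to 2.06), or 3.59-fold. With miR-376a*G it was 2.02 higher (SE 0.10, interval 1.81 to 2.24), or 4.06-fold. In both comparisons it ranked 2 of 12505 genes by rise. NUP37 was selected on these differences, so they are given without a test. A higher level with both forms and a lower level with the control duplex cannot be told apart in this design, nor in bulk RNA can a change in all cells and in some of them. Without control replicate 1 the differences were 1.87 and 2.04.

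Between the forms the difference was -0.18 for miR-376a*A minus miR-376a*G (interval -0.39 to 0.04). It did not pass limma's test (adjusted p = 0.619 over all genes, and 0.208 without control replicate 1). The arrays of both forms also entered the choice of NUP37, so this comparison is not independent of that choice. The arrays of the forms overlapped in deposited signal, at 729 to 782 and 778 to 918, though not after normalization.

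**Figure D1:**
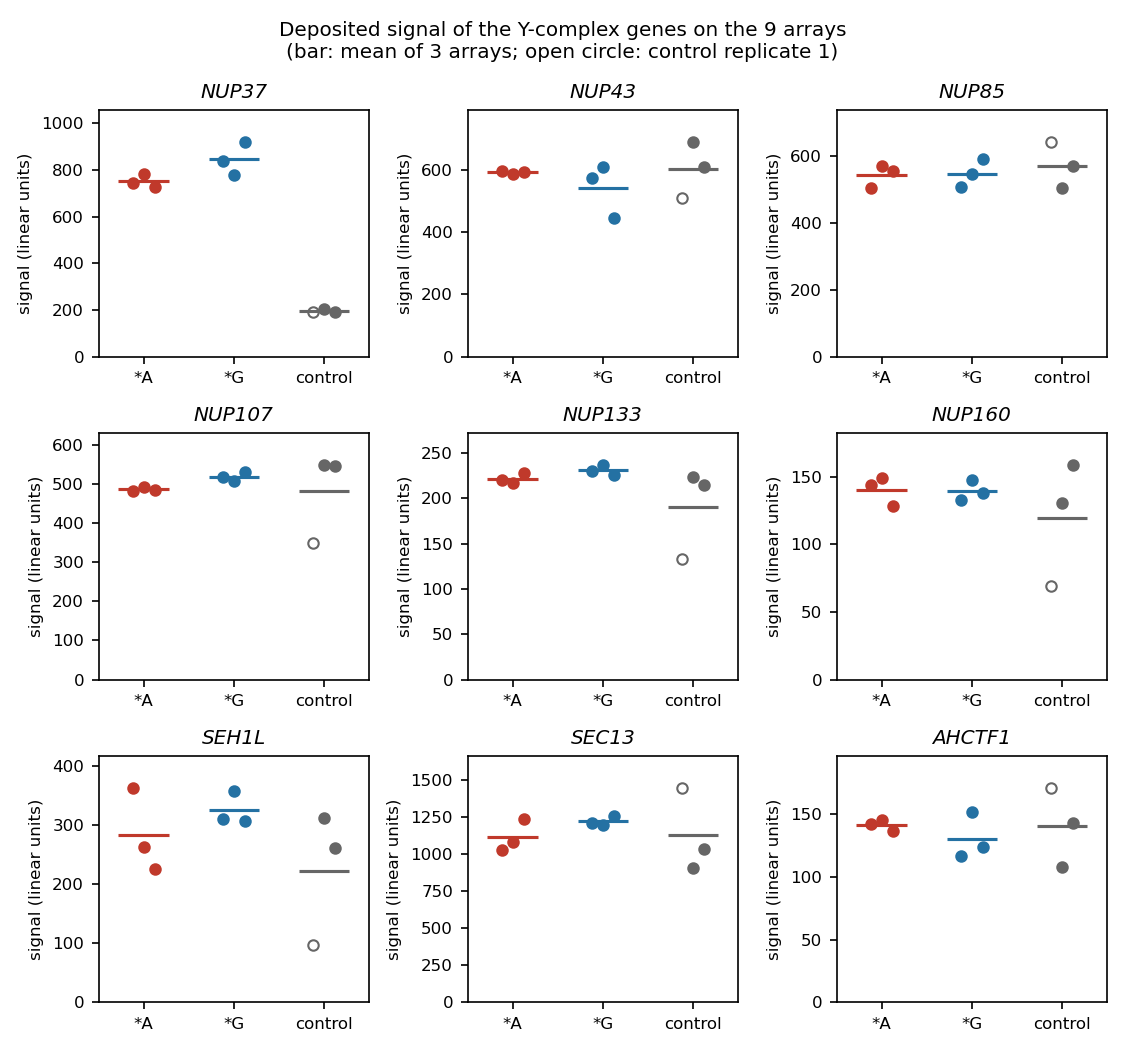
Deposited signal (linear units, axes from 0) of the brightest probe set of each of the 9 Y-complex genes, with 1 point per array and a bar at the mean of 3 arrays for miR-376a*A (*A), miR-376a*G (*G) and control. The 6 arrays of NUP37 with either form lie between 729 and 918, above the 3 control arrays at 191 to 204. In 7 of the other panels control replicate 1 (open circle) is the lowest or highest of the 9 arrays.

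A second NUP37 probe set, 238637_at, was dim and did not show this. Its signals were 41.2, 31.7 and 36.5 with miR-376a*A and 26.9, 27.6 and 34.1 with miR-376a*G, against 28.8, 29.4 and 32.1 in control. With miR-376a*A it was 0.27 above control (SE 0.14) and 0.06 higher with miR-376a*G (SE 0.14). Averaging both probe sets would put NUP37 at 1.06 for miR-376a*A and 1.04 for miR-376a*G, so the size of its difference rests on the bright probe set, 218622_at. The labels do not say where in the transcripts either probe set lies.

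The 5 genes whose level over the 9 arrays was most like that of NUP37 all had Pearson r = 0.991. They were CAV2, a caveolin of membrane pits, GLO1, which detoxifies methylglyoxal, PDCD2, SEC22C, related to SNARE proteins of early secretion, and EVI2B. Their differences from control lay between 0.84 (EVI2B) and 1.78 (SEC22C) with miR-376a*A and between 0.96 (EVI2B) and 1.81 (SEC22C) with miR-376a*G. Of 12502 genes compared, 70 had r over 0.95. These values share the control arrays, and over deviations from the group means, within groups, r was 0.68 for PDCD2, 0.31 for CAV2, 0.16 for GLO1, -0.05 for EVI2B and -0.11 for SEC22C. None of the other subunits was among these 5, which says little about them, since only 5 of 12502 genes were named.

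The neighbours of NUP37 on the chromosome did not show its difference. PARPBP, a regulator of homologous recombination that shares the promoter region, had signals of 120.5, 137 and 113 with miR-376a*A and 126, 125 and 146 with miR-376a*G, against 93.1, 112 and 145 in control. The ranges overlapped in every comparison, and it differed by 0.10 (SE 0.14) with miR-376a*A and 0.17 (SE 0.14) with miR-376a*G. PMCH, a neuropeptide precursor, differed by 0.24 and 0.27 (SE 0.30 each). Its probe set was dim, with a mean of 5.18 beside the filter level of 5.17, which limits what its values can show. WASHC3, a subunit of an endosomal actin regulator, differed by 0.07 and 0.08 (SE 0.16 each), and DRAM1, a lysosomal membrane protein, by 0.17 and -0.18 (SE 0.10 each). None of the 4 passed limma's test against control with all arrays (lowest adjusted p = 0.405, for DRAM1). Without control replicate 1, WASHC3 passed with miR-376a*G (0.28, adjusted p = 0.0386), where 17% of all genes did. Also without that array, DRAM1 passed between the forms (0.35, adjusted p = 0.00986), where 9.72% of all genes did.

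No step like that of NUP37 was seen in NUP160, NUP85 or NUP43. NUP160, the large scaffold protein that NUP37 binds, had signals of 144, 149 and 129 with miR-376a*A and 132, 147 and 138 with miR-376a*G, against 69.2, 130.1 and 158 in control. Both treated groups lay within the span of the control arrays, of which replicate 1 was the lowest of all 9. NUP160 differed from control by 0.29 with miR-376a*A (SE 0.21, limma adjusted p = 0.592) and by 0.27 with miR-376a*G (SE 0.21, adjusted p = 0.557), and without control replicate 1 by 0.00 and -0.02. NUP85, the scaffold protein that holds SEH1L, had signals of 505, 569 and 555 with miR-376a*A and 506, 545 and 591 with miR-376a*G, against 641, 504 and 569 in control. Its 3 groups overlapped, with differences of -0.09 and -0.08 from control (SE 0.11 each, adjusted p = 0.773 and 0.767). NUP43, another propeller protein, had signals of 597, 588 and 593 with miR-376a*A and 574, 608 and 445 with miR-376a*G, against 509.7, 688 and 610.0 in control. The control arrays spanned the miR-376a*A arrays, and the differences were -0.04 and -0.19 (SE 0.14 each, adjusted p = 0.927 and 0.520).

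No such step was seen in the stem of the Y either. NUP107, a helical protein of the stem, had signals of 482, 493 and 485 with miR-376a*A and 518, 509 and 532 with miR-376a*G, against 349.8, 548 and 547 in control. Control replicates 2 and 3 lay above all 6 arrays of the forms and replicate 1 below them. The mean difference was 0.01 for miR-376a*A and 0.09 for miR-376a*G (SE 0.14 each, limma adjusted p = 0.991 and 0.797), and -0.18 and -0.09 without control replicate 1 (adjusted p = 0.107 and 0.382). NUP133, at the foot of the stem, had signals of 220.4, 217 and 228 with miR-376a*A and 230.2, 237 and 226 with miR-376a*G, against 133, 224 and 215 in control. Its miR-376a*G arrays all lay above the control arrays, by little except for replicate 1. NUP133 differed from control by 0.23 and 0.27 (SE 0.15 each, adjusted p = 0.530 and 0.385), and by 0.05 and 0.09 without that array.

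SEH1L and SEC13 are the subunits shared with other complexes. SEH1L had signals of 363, 263 and 225 with miR-376a*A and 311, 359 and 308 with miR-376a*G, against 97.2, 312 and 262 in control. Its spread was the widest of the 9 genes and came mainly from control replicate 1. It differed from control by 0.43 with miR-376a*A (SE 0.32, interval -0.29 to 1.16, limma adjusted p = 0.601) and by 0.63 with miR-376a*G (SE 0.32, interval -0.09 to 1.35, adjusted p = 0.354). Without control replicate 1 these were -0.01 and 0.19. SEC13 had signals of 1032, 1081 and 1242 with miR-376a*A and 1208.5, 1200.2 and 1259.85 with miR-376a*G, against 1447, 905 and 1039.6 in control. Control replicate 1 was the highest of the 9 arrays and the other control arrays lay below all 3 of miR-376a*G. SEC13 differed from control by 0.02 with miR-376a*A (SE 0.11, adjusted p = 0.961) and by 0.20 with miR-376a*G (SE 0.11, adjusted p = 0.395). Without control replicate 1 it rose by 0.30 with miR-376a*G (interval 0.11 to 0.48, adjusted p = 0.0319), and it was at 0.13 with miR-376a*A (adjusted p = 0.351).

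AHCTF1 encodes ELYS, which brings the complex to chromatin when pores are rebuilt after mitosis. Its brightest probe set, 214766_s_at, had signals of 142, 145 and 137 with miR-376a*A and 116, 151 and 124 with miR-376a*G, against 171, 108 and 143 in control. The groups overlapped in every comparison, and the differences from control were 0.01 and -0.10 (SE 0.17 each, limma adjusted p = 0.982 and 0.811). Its other probe set, 226115_at, had signals of 124, 109 and 98.3 with miR-376a*A and 70.6, 80.9 and 76.8 with miR-376a*G, against 53.7, 91.8 and 96.2 in control. All miR-376a*A arrays lay above the others there, by 0.46 over control (adjusted p = 0.416) and by 0.46 over miR-376a*G (adjusted p = 0.596 over all probe sets). The second difference passed without control replicate 1 (0.46, adjusted p = 0.0253). Between the forms of miR-376a*, the gene values of the 8 subunits other than NUP37 lay between -0.20 (SEH1L) and 0.15 (NUP43) for miR-376a*A minus miR-376a*G.

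**Figure D2:**
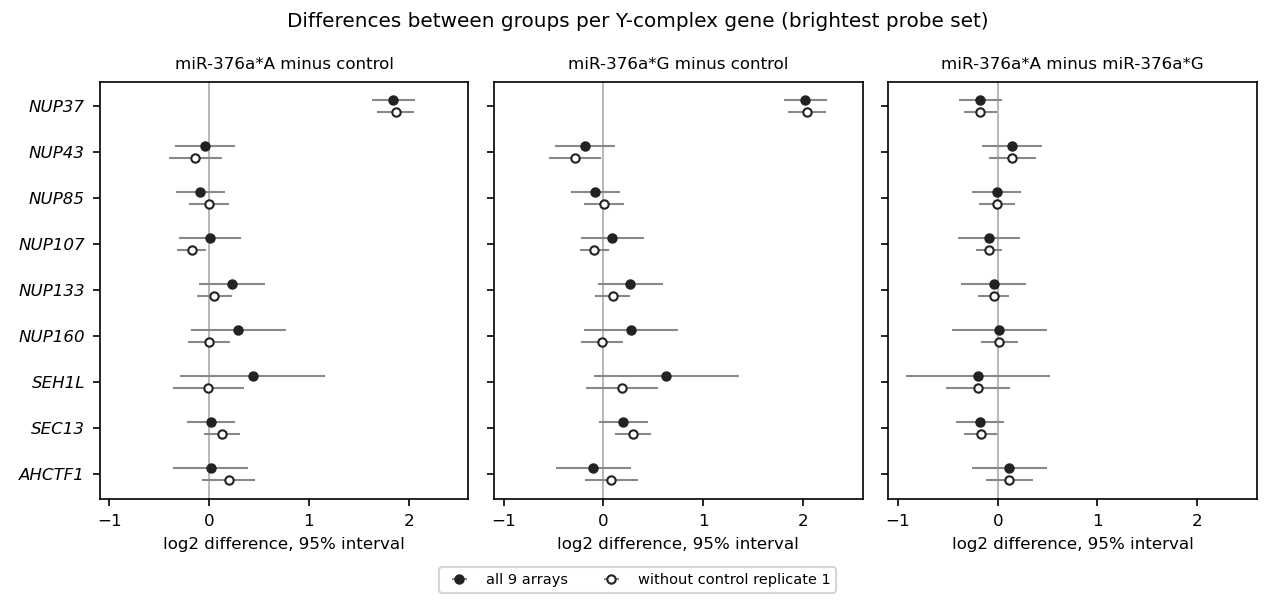
Log2 difference with its 95% interval for each Y-complex gene, in panels for miR-376a*A minus control, miR-376a*G minus control and miR-376a*A minus miR-376a*G, from all 9 arrays (filled) and without control replicate 1 (open). NUP37, which was chosen for its difference from control and is not tested there, lies at 1.85 and 2.02. The wide interval of SEH1L (-0.29 to 1.16 with miR-376a*A) narrows around -0.01 once control replicate 1 is left out.

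Counted together, none of the 8 other subunits passed limma's test with miR-376a*A against control, where 3.33% of all genes did. Nor did any with miR-376a*G against control, where 4.62% did, or between the forms, where 2.63% did. At an unadjusted p under 0.05 the count was also 0 of 8 in each comparison, beside 14.9%, 17.8% and 10.7% of all genes. Adjusted p-values ran from 0.530 to 0.991, from 0.354 to 0.811 and from 0.704 to 0.998. The median difference of the 8 genes was 0.02 for miR-376a*A, 0.14 for miR-376a*G and -0.03 between the forms, against 0.01, 0.01 and 0.00 over all genes. The highest upper limit of their intervals, that of SEH1L, was 1.16 for miR-376a*A and 1.35 for miR-376a*G. The difference between NUP37 and the subunits was not itself tested, and with 3 arrays per group smaller shifts of the subunits could go undetected.

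After normalization the arrays of the groups did not overlap for 0 of the 8 genes with miR-376a*A against control (20.5% of all genes), for NUP133 with miR-376a*G against control (21.7% of all genes) and for NUP107 and SEC13 between the forms (29.5% of all genes). Leaving out control replicate 1 raised the share of all genes that passed to 13.4% for miR-376a*A, 17% for miR-376a*G and 9.72% between the forms. Among the 8 subunits SEC13 with miR-376a*G was then the only call, and 1, 2 and 1 of the 8 had an unadjusted p under 0.05 in these comparisons, beside 28.4%, 31.6% and 22.6% of all genes. The medians were 0.00, 0.04 and -0.02.

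All 16 probe sets of the 9 genes were above the filter level. A further probe set assigned to AHCTF1 together with its pseudogene was left out. Of the 14 probe sets of the 8 other subunits, 0 passed limma's test over all probe sets in any comparison, where 0.911% passed for miR-376a*A, 1.24% for miR-376a*G and 0.704% between the forms. Without control replicate 1, AHCTF1 226115_at was the only call, between the forms, where 2.61% of all probe sets passed (3.24% and 4.36% in the comparisons with control). Of the 6 genes with several probe sets, NUP37, AHCTF1, SEH1L and NUP133 had probe sets that differed in at least 1 comparison with control. NUP133 233421_s_at, close to the filter level, was at 0.01 for miR-376a*A and -0.08 for miR-376a*G, below the bright one. For NUP160 the values were 0.29, 0.15 and 0.13 with miR-376a*A, and 0.27, 0.33 and 0.28 with miR-376a*G. For SEH1L the second probe set, 223225_s_at, was at -0.01 for miR-376a*A and 0.30 for miR-376a*G, lower than the bright one. Probe sets whose name ends in _s_at can take in several transcripts.

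**Figure D3:**
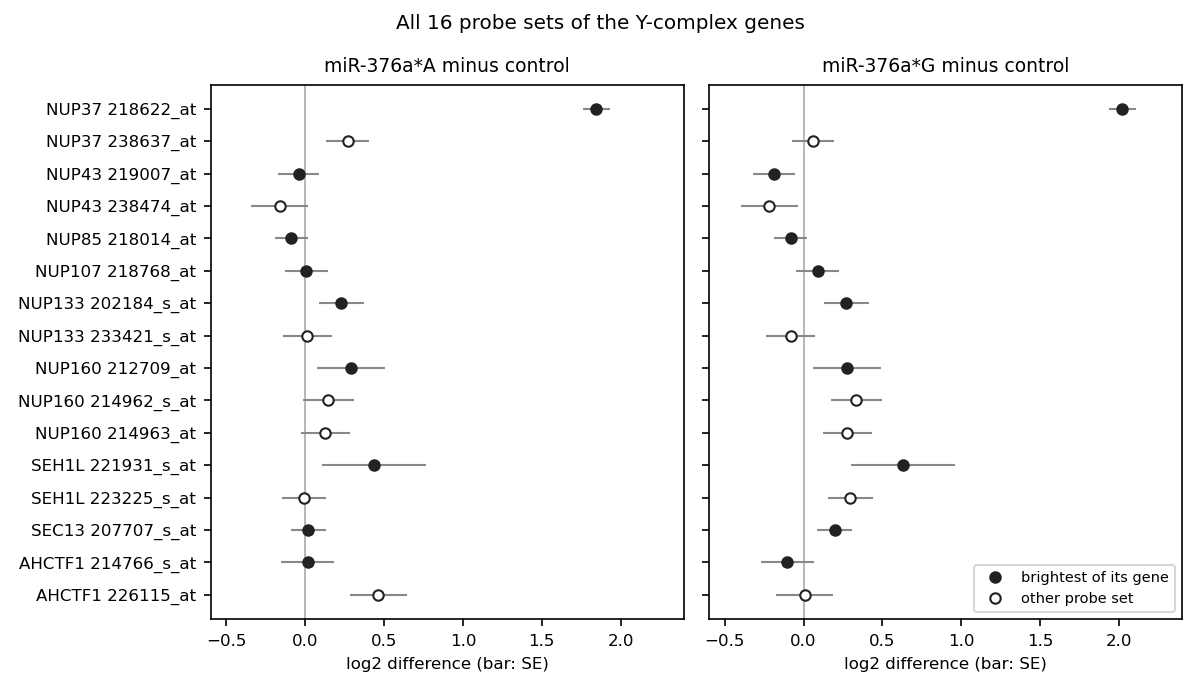
Log2 difference from control (bar: SE) of the 16 probe sets of the Y-complex genes with miR-376a*A (left) and miR-376a*G (right), with the brightest probe set of each gene filled. NUP37 218622_at lies at 1.85 and 2.02, while NUP37 238637_at lies at 0.27 and 0.06. SEH1L 221931_s_at lies at 0.43 and 0.63 with the longest bar, and AHCTF1 226115_at at 0.46 and 0.01.

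Partners of the shared subunits in their other complexes gave no call in any comparison by limma. SEC31A, which forms the outer COPII cage with SEC13, differed from control by -0.15 for miR-376a*A and -0.27 for miR-376a*G, and SEC31B was below the filter. For the GATOR2 subunits the values with miR-376a*A and miR-376a*G were -0.27 and -0.25 (MIOS), -0.05 and 0.12 (WDR24) and -0.05 and -0.06 (WDR59). MIOS had signals of 356, 358 and 362 with miR-376a*A and 385, 319.8 and 398 with miR-376a*G, against 444, 409 and 435 in control. Both groups lay below all control arrays, without passing (adjusted p = 0.264 and 0.249). At an unadjusted p under 0.05 the counts were 1, 1 and 0 of the 4 partners tested, beside 14.9%, 17.8% and 10.7% of all genes.

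Beyond the Y-complex, 21 of 23 other nucleoporins were tested, and NUP210 and AAAS were below the filter. With miR-376a*A against control 1 passed, NUP50, which fell. This basket protein, which helps importins release their cargo, had signals of 213, 219.8 and 220.0 with miR-376a*A and 397, 354 and 368 with miR-376a*G, against 329, 396 and 366 in control. The miR-376a*A arrays alone were low, by -0.72 against control (SE 0.10, limma adjusted p = 0.00304) and by -0.72 against miR-376a*G (adjusted p = 0.00301). Other NUP50 probe sets above the filter gave -0.53, -0.39 and -0.24 with miR-376a*A against control, none past the test, and their mean with the bright one did not pass (-0.47, adjusted p = 0.0566).

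With miR-376a*G against control 1 nucleoporin passed, NUP58, which rose. NUP58, which lines the central channel, had signals of 356, 366 and 302 with miR-376a*A and 602, 631 and 657 with miR-376a*G, against 205, 301 and 379.9 in control. The miR-376a*G arrays stood above all others, by 1.06 over control (SE 0.17, limma adjusted p = 0.00536), and the miR-376a*A minus miR-376a*G difference was -0.86 (adjusted p = 0.0235). Its other probe sets above the filter gave -0.11, 0.12 and -0.10 with miR-376a*G against control and did not pass, and the mean of its probe sets was 0.25 (adjusted p = 0.577). Between the forms the call for NUP58 was also lost without any 1 of the 6 arrays of the forms (adjusted p = 0.0797 to 0.132) and with the replicate number as a block (0.0503). NUP98, whose precursor also gives NUP96 of the Y-complex, was at -0.09 and -0.06 against control on its brightest probe set (adjusted p = 0.806 and 0.854). It was at 0.95 and 1.09 on 210793_s_at (adjusted p = 0.111 and 0.0542) and at 0.08 and 0.17 on 203194_s_at (adjusted p = 0.896 and 0.669). None of these passed limma's test over all probe sets. Medians over the 21 nucleoporins were -0.04, 0.09 and -0.13. The calls were 1, 1 and 2 of 21, beside 3.33%, 4.62% and 2.63% of all genes, and without control replicate 1 they were 2, 3 and 3, beside 13.4%, 17% and 9.72%. The added calls were NUP205 of the inner ring (-0.48) with miR-376a*A, POM121C (0.42) and RAE1 (0.22) with miR-376a*G, and POM121C (-0.58) between the forms.

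Of 31 transport receptors and Ran cycle genes 28 were tested, while IPO11 was below the filter and NUTF2 and NXF1 had no probe set annotated to them alone. Only KPNA6, importin alpha7, which carries cargo into the nucleus, passed with all arrays. Its signals were 255, 216 and 206 with miR-376a*A and 307, 325 and 337 with miR-376a*G, against 354, 424 and 408 in control. The groups did not overlap, and KPNA6 fell by 0.79 with miR-376a*A against control (SE 0.11, limma adjusted p = 0.00304). Between the forms it was at -0.48 (adjusted p = 0.0485), a call that held in 7 of 20 other settings and was lost with the replicate block (0.145). With miR-376a*G against control it was at -0.32 (adjusted p = 0.145), and it passed without control replicate 1 (-0.36, adjusted p = 0.0244). With all arrays 0 of 28 genes passed there, with 6 at an unadjusted p under 0.05, beside 17.8% of all genes. Other KPNA6 probe sets gave -0.73, -0.70 and -0.28 with miR-376a*A against control. Over all probe sets, of which 0.911% passed limma's test, 212103_at and 212101_at passed (adjusted p = 0.0123 and 0.00308) and 212102_s_at did not (0.458). Between the forms, where 0.704% passed, 212101_at did (-0.54, adjusted p = 0.0137). There 212103_at (-0.54, adjusted p = 0.0564), the brightest (-0.48, 0.0739) and 212102_s_at (-0.19, 0.887) did not.

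KPNB1, importin beta, was singled out after its values were seen, because most of its probe sets passed against control, though the brightest did not. The brightest was at 0.35 for miR-376a*A and 0.32 for miR-376a*G (adjusted p = 0.0941 and 0.0996 over all genes). Of its 6 probe sets 4 passed limma's test over all probe sets in both comparisons, where 0.911% and 1.24% of all probe sets did. The highest, 213573_at, was also the dimmest, at 1.30 for miR-376a*A and 1.08 for miR-376a*G (adjusted p = 0.00396 and 0.00947). The brightest did not pass there (adjusted p = 0.230 and 0.226), nor did the next brightest, 208974_x_at (0.31 and 0.21, adjusted p = 0.191 and 0.343). Dimmer probe sets of TNPO1 (209225_x_at, 0.69, adjusted p = 0.00806) and XPOT (227117_at, -0.42, adjusted p = 0.0493) also passed there with miR-376a*G against control. The brightest probe sets of TNPO1 and XPOT, at 0.01 and -0.04, did not. Over the 28 genes the calls were 1 for miR-376a*A, 0 for miR-376a*G and 1 between the forms, beside 3.33%, 4.62% and 2.63% of all genes. Without control replicate 1 they were 2, 5 and 3, beside 13.4%, 17% and 9.72%. Besides KPNA6, these were KPNA5 (-0.71) with miR-376a*A, KPNA4 (-0.37), IPO7 (-0.31), XPOT (-0.25) and IPO4 (0.27) with miR-376a*G, and KPNA5 (-0.53) and KPNA3 (-0.45) between the forms. Medians were -0.02, 0.00 and -0.02.

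**Figure D4:**
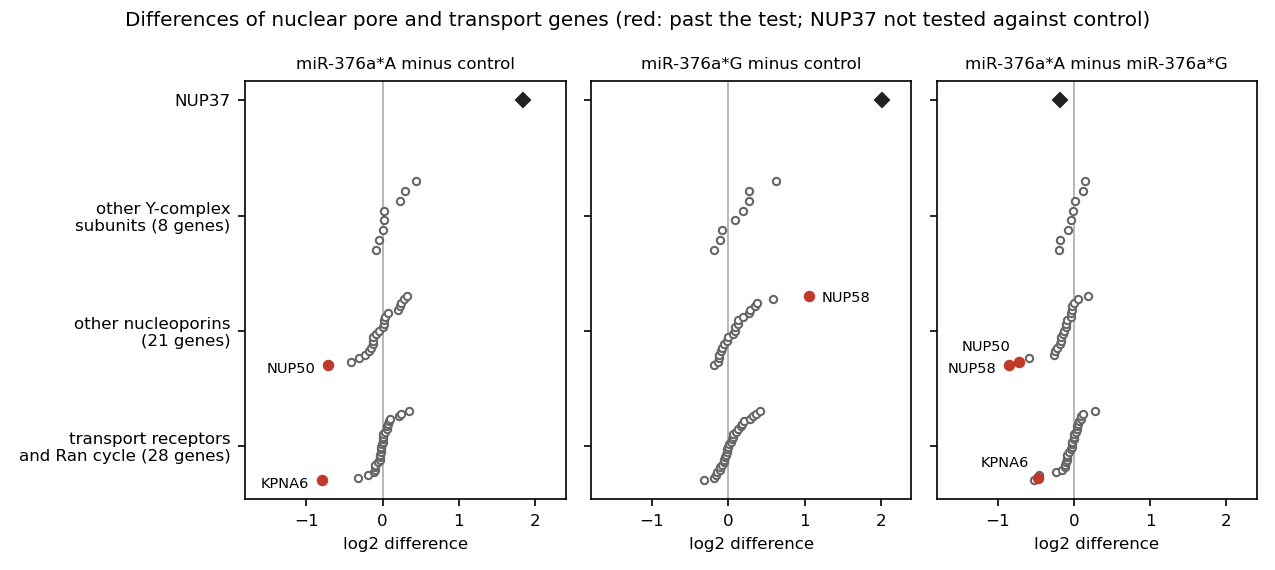
Log2 differences of NUP37 (diamond), the 8 other Y-complex subunits, 21 other nucleoporins and 28 transport receptors and Ran cycle genes, with 1 point per gene in order of value within each list and genes past limma's test in red. NUP37, which was chosen for this difference, lies right of the other genes shown in both comparisons with control. The calls are NUP50 (-0.72) and KPNA6 (-0.79) with miR-376a*A, NUP58 (1.06) with miR-376a*G, and all 3 between the forms.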

How the data were processed

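RNA of 9 transfected samples was labelled with biotin, per the labels' protocols. Per the submitters' processing notes, GCOS 1.4.0.036 was used. The deposited table holds linear signal intensities of 54675 probe sets, scaled so that each array had a mean of 100.01 to 100.013 after trimming 2% at each end. How probes were summarised is not given in the sources used here. Such scaling hides a change common to most transcripts. All sample columns were used (0 left out).

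Signals plus 16 were put on the log2 scale and quantile normalized, since array medians differed by 0.20. Probe sets with a mean below the 50th percentile (5.17) were left out. Genes were named from the platform annotation through the RefSeq gene table of GRCh38.p14 (0 symbols changed): 41097 probe sets had 1 symbol, 1801 several and 11777 none. Each gene took its brightest probe set, which gave 12505 genes. The files name no genome build, and the coordinates printed are those of the RefSeq sequences of GRCh38.p14. The 3 groups were fitted together with limma 3.58.1 in R 4.3.3 (lmFit, eBayes with an intensity trend), with Benjamini-Hochberg adjustment over all genes and a threshold of 0.05. Every probe set was also fitted with no filter. The procedure was tested on simulated data. Precision is limited by the number of arrays, since an exact test between groups of 3 cannot go below p = 0.1.

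The members and gene lists were chosen with earlier results of these data known. Named are all members and partners, every listed pore or transport gene past the threshold, the 5 genes most like NUP37 and 2 protein-coding neighbours on each side. Groups share replicate numbers, with no shared culture or day named in the labels. Same-numbered deviations from the group means correlated by 0.125 to 0.187 between miR-376a*G and control, above the limit of 0.1 for a pairing, by -0.361 to 0.0315 between miR-376a*A and control and by -0.0984 to -0.0313 between the forms. Alternatives were other normalizations, pseudocounts, filters, probe set rules, array weights, no trend, 6 arrays, the replicate block and each array left out.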

Additional observations from a re-analysis of the deposited data

Results flagged for a closer look

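NUP58 differed between the forms, with a log2 difference of -0.86 for miR-376a*A minus miR-376a*G (limma adjusted p = 0.0235), lower on all 3 arrays of miR-376a*A than on any of miR-376a*G, a call lost in 9 of 20 other settings (adjusted p up to 0.841, with the mean of its probe sets). NUP50 differed between the forms by -0.72 (adjusted p = 0.00301), with the miR-376a*A arrays again below all those of miR-376a*G. KPNA6 differed between the forms by -0.48 (adjusted p = 0.0485), in the same direction and also without overlap, a call lost in 13 of 20 other settings (adjusted p up to 0.249).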

How the results depend on the processing

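The count of 0 among the 8 other Y-complex subunits held under all 20 alternatives with miR-376a*A against control and between the forms. With miR-376a*G against control it became 1 (SEC13) with array weights (0.37, adjusted p = 0.00395), where 19.4% of all genes passed, and it ranged from 0 to 1 when arrays were left out. The NUP37 difference from control was 1.65 for miR-376a*A and 1.81 for miR-376a*G under a pseudocount of 64. It was 1.06 and 1.04, and 0.015 between the forms, with the mean of its probe sets, while leaving out arrays gave 1.81 to 1.88, 1.96 to 2.08 and -0.23 to -0.11. Over all comparisons, calls among probe sets of the 8 other subunits numbered 1 with only the 6 arrays compared and 0 to 1 when arrays were left out. The filter and averaging alternatives do not apply to them. Of these settings, the share of all probe sets that passed was counted only without control replicate 1 (2.61% between the forms). Other nucleoporins numbered 0 with the mean of probe sets, 2 with array weights and 1 to 2 with arrays left out for miR-376a*A against control. For miR-376a*G against control they numbered 0, 3 and 1 to 3. Between the forms they numbered 1 with the mean of probe sets, with median-centred arrays and with the replicate block, 4 with only the 6 arrays, 6 with array weights and 1 to 3 with arrays left out, where 10.3% of all genes passed with the 6 arrays and 13.2% with array weights, against 2.63% with the settings of the report. With array weights 18.5% of all genes passed for miR-376a*A against control. With the mean of probe sets 3.67%, 5.23% and 2.93% of all genes passed for miR-376a*A, for miR-376a*G and between the forms. With arrays left out these shares ran from 1.41% to 13.4%, from 1.89% to 17% and from 1.14% to 9.72%. Between the forms 2.04% passed with median-centred arrays, 2.47% with no further normalization and 2.39% with a pseudocount of 64. There 1.35% passed with no filter and 1.78% with the replicate block. Transport genes numbered 2 with the mean of probe sets, 2 with array weights and 1 to 2 with arrays left out for miR-376a*A against control, and 2, 6 and 0 to 5 for miR-376a*G against control. Between the forms they numbered 0 with median-centred arrays, no further normalization, a pseudocount of 64, no filter and the replicate block, 3 with only the 6 arrays and with array weights, and 0 to 3 with arrays left out. The replicate block changed no other count. Some of these fits used fewer arrays, and the cause of the shifts was not tested. Control replicate 1 set most of the spread of SEH1L, NUP160, NUP133 and NUP107, and dim probe sets such as NUP37 238637_at limit what their values can show.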
